A study of Mus musculus with 9 samples.

Results

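The genes described here encode the ligands, receptors, inhibitors and intracellular carriers of the Wnt, bone morphogenetic protein (BMP) and transforming growth factor beta (TGF-beta) pathways, read in whole epididymal white adipose tissue (WAT) of mice. They were picked by a rule on the gene symbol, set with earlier results of these data known. Names were held for only some of the array's probes. The rule takes every named gene whose symbol starts with Wnt, Fzd, Sfrp, Dkk, Bmp, Tgfb, Smad, Inhb, Gdf, Acvr or Ltbp and continues as a family member (a digit, or r for a receptor, where the family name asks for one). This gave 52 of 9991 named genes, on 75 of 14264 named probes. Of these, 44 genes on 65 probes stood above background on at least 3 of the 9 arrays, out of 8699 genes that did so. Dkk1, Dkk4, Fzd9, Fzd10, Smad9, Wnt7b, Wnt9a and Wnt16 did not pass this filter, and no inhibin or activin subunit (Inhb) was among the named genes.

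The LU group received the high-fat diet with 0.005% (w/w) luteolin, a plant flavone, the HFD group the same high-fat diet alone (20% fat and 1% cholesterol by the sample labels), and the ND group a normal diet, all for 16 weeks. All were male C57BL/6J mice that arrived at 4 weeks of age (the strain field of the labels spells it C56BL/6J). The arrays were Illumina MouseWG-6 v2 BeadChips, 3 for each group. RNA came from the whole fat pad and, by the methods, from pooled sample sets whose number of mice is not given, so p-values measure only the spread between these RNA samples. A fall in a transcript in such tissue can mean fewer cells of a type or less RNA per cell, which cannot be told apart here. Signals are quantile-normalized and on the log2 scale, where a difference of 1 is a 2-fold change. Genes were read from their brightest probe and called at an adjusted p under 0.05 in limma, with the adjustment over all 20558 probes kept.

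As background, Wnt ligands bind Frizzled (Fzd) receptors and restrain the formation of adipocytes. The secreted Sfrp proteins bind Wnt ligands, and several secreted Dkk proteins block their co-receptors Lrp5 and Lrp6. BMP ligands act through Bmpr1a, Bmpr1b, Acvr1 and Bmpr2 on Smad1, Smad5 and Smad9, and some of them commit precursor cells to the fat lineage. TGF-beta, activin and related growth differentiation factors act through Tgfbr1, Acvr1b or Acvr1c on Smad2 and Smad3, and TGF-beta is kept latent in the matrix by Ltbp proteins and is known for driving collagen synthesis.

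In LU against HFD, 6 of the 44 members were higher and 14 were lower, while 24 did not pass the threshold. These are 13.6% and 31.8% of the members, beside a background of 19.7% of all 8699 genes called higher and 18.2% called lower. In HFD against ND, 13 members were higher and 8 were lower, which is 29.5% and 18.2% of the members beside 25.2% and 27.7% of all genes. In LU against ND, 10 members (22.7%) were higher and 11 (25.0%) were lower, against 21.1% and 18.6% of all genes. The median log2 fold change of the members was -0.05 for LU against HFD, -0.03 for HFD against ND and -0.04 for LU against ND, where all genes had medians of 0.02, -0.03 and 0.01. Changes were mostly below 1.5-fold, and with that fold as a further condition 1 member stayed higher and 1 lower in LU against HFD, and 6 higher and 2 lower in HFD against ND. Of all 8699 genes, 79 stayed higher and 214 lower in LU against HFD, and 592 and 268 in HFD against ND. Under median scaling 8 members were lower in LU against HFD, so that 42.9% of the member calls were higher instead of 30.0%, while the same share over all genes was 63.8% instead of 51.9%. The 6 calls it ended were those of Acvr1b, Bmp1, Dkk3, Fzd5, Fzd7 and Smad2 (log2 fold changes of -0.23 to -0.14, adjusted p = 0.065 to 0.14), and in HFD against ND it ended those of Ltbp3, Smad3 and Wnt5b (adjusted p = 0.16, 0.19 and 0.086). With the rank product, the test that the methods name for the arrays, 1 member was higher and 4 were lower in LU against HFD, and 3 were higher and 1 lower in HFD against ND. Of all 8699 genes it called 222 higher and 315 lower in LU against HFD, and 377 and 254 in HFD against ND. Of the 55 called member values given by array below, 41 were lost with it, all those of Tgfb1 among them. The count of lower members in LU against HFD was 9 without LU replicate 3, and that in HFD against ND was 5 without HFD replicate 1. Over all genes, 1209 and 2013 were lower in these fits, against 1587 and 2410 with every array. LU against HFD and HFD against ND use the same 3 HFD arrays, so an error in those arrays moves them in opposite directions. Opposite signs in these comparisons are therefore not independent results, and the values are given side by side. The background holds for named probes only, of which 37.3% were called in either direction in LU against HFD and 51.7% in HFD against ND, against 14.0% and 15.9% of the probes with no name.

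**Figure D1:**
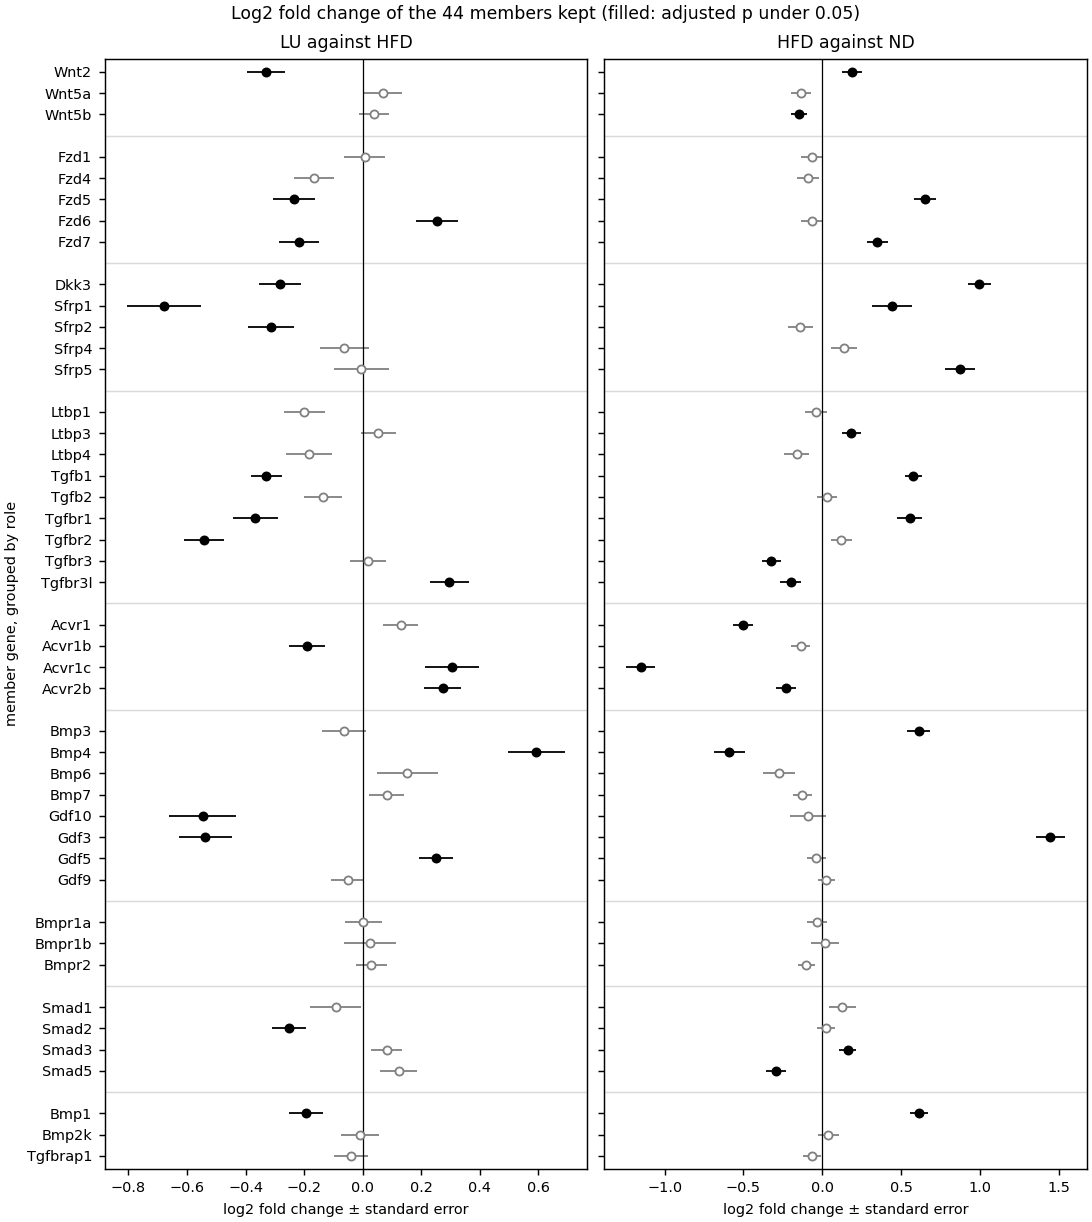
Log2 fold change (horizontal axis, with its standard error) of the 44 members above background, grouped by role down the page, in LU against HFD (left panel) and HFD against ND (right panel); filled points have an adjusted p under 0.05. The lowest value in HFD against ND belongs to Acvr1c (-1.15) and the highest to Gdf3 (1.45), while in LU against HFD the lowest is that of Sfrp1 (-0.68) and the highest that of Bmp4 (0.59).

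The promoters of 4 members are shown because these genes carry the receptor and inhibitor results below. Acvr1c had the lowest fold change of the members in HFD against ND, Sfrp5 stayed high in LU, and Tgfbr1 and Tgfbr2 are the receptor pair of TGF-beta. Each window is RefSeq sequence of the build GRCm38.p6 and runs 5′ to 3′ along the gene, from 250 bases before to 50 bases after the annotated start nearest the gene's 5′ end. Capitals mark the Smad motif CAGAC (or GTCTG), the GC-rich Smad motif GGCGCC and the TCF/LEF motif CTTTGA (or TCAAAG) of the Wnt pathway, none of which overlaps another.
Acvr1c, chr2:58357709-58358008, minus strand: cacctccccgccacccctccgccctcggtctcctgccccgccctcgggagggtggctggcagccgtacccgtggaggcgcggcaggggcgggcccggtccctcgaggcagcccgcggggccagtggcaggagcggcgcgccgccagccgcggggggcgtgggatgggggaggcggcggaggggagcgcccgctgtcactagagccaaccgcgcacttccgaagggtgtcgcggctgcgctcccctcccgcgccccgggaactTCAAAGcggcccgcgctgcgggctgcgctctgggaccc
Sfrp5, chr19:42202203-42202502, minus strand: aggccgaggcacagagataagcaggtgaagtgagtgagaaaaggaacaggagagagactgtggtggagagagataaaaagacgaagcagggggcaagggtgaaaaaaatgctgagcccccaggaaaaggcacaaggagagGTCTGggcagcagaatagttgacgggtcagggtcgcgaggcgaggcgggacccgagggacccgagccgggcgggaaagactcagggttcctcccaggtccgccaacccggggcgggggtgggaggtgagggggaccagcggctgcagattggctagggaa
Tgfbr1, chr4:47352972-47353271, plus strand: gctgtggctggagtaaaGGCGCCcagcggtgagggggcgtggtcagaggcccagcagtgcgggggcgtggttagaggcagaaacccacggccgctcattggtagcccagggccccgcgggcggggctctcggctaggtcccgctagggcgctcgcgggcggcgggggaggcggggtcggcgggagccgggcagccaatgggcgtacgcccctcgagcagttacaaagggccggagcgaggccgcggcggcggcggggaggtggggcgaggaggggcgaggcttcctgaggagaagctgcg
Tgfbr2, chr9:116175314-116175613, minus strand: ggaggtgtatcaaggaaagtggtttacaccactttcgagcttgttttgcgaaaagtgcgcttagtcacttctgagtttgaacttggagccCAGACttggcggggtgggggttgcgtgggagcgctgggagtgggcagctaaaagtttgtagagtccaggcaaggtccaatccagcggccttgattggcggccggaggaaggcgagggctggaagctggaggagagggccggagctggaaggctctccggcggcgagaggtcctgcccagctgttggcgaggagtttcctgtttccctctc
Each of the 4 windows holds 1 match, of TCF/LEF in Acvr1c, of the Smad motif in Sfrp5 and Tgfbr2, and of the GC-rich motif in Tgfbr1. Of the 52 members, 37 had a window in the RefSeq table, with 49 windows in all. CAGAC stood in 49.0% of the member windows and in 49.6% of all 32851 windows, CTTTGA in 8.16% and 16.0%, and GGCGCC in 34.7% and 11.9%. The member windows had a median GC content of 66.7%, and all windows one of 52.7%. A match is a description of the letters and not a site.

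Of the 6 Wnt ligands 3 passed the filter. None was higher and 1 (33.3%) was lower in LU against HFD, beside 19.7% higher and 18.2% lower over all genes. In HFD against ND 1 was higher and 1 lower (33.3% each), beside 25.2% and 27.7%. Counts by role, here and below, rest on few genes. Wnt2 read 7.67, 7.59 and 7.68 on the log2 scale in LU, 8.05, 8.0 and 7.88 in HFD, and 7.86, 7.69 and 7.81 in ND. All LU values lay under all HFD values, and Wnt2 was detected on no LU array, on every HFD array and on 2 ND arrays. It was therefore at least 1.13-fold lower in LU than in HFD, the bound being set by the background level of the LU arrays (measured log2 fold change -0.33 ± 0.0636, SE, adjusted p = 0.0024). Wnt2 was 1.14-fold higher in HFD than in ND (0.19, adjusted p = 0.032), a call lost without HFD replicate 1 or 2 or ND replicate 2 (0.14 to 0.18, adjusted p = 0.096 to 0.12). Wnt5b, a ligand of the branch that does not act through beta-catenin, read 8.18, 8.16 and 8.20 in HFD and 8.34, 8.29 and 8.36 in ND, with no overlap. Its fall by 0.15 was slight (adjusted p = 0.037) and was lost without LU replicate 1, any 1 of the 3 HFD replicates, or ND replicate 1 or 3 (-0.16 to -0.13, adjusted p = 0.054 to 0.11). Wnt5a had log2 fold changes of 0.07 in LU against HFD and -0.14 in HFD against ND and did not pass the threshold (adjusted p = 0.45 and 0.11).

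Frizzled receptors went both ways, with 1 of 5 higher and 2 lower in LU against HFD and 2 higher and 0 lower in HFD against ND. These are 20.0% and 40.0% in LU against HFD, beside 19.7% and 18.2% of all genes. In HFD against ND the higher share was 40.0%, beside 25.2% higher and 27.7% lower over all genes. Fzd5 read 10.60, 10.50 and 10.59 in LU, 10.86, 10.82 and 10.72 in HFD, and 10.21, 9.99 and 10.24 in ND. No groups overlapped, with HFD highest and LU in between. Fzd5 was 1.18-fold lower in LU than in HFD (log2 fold change -0.24 ± 0.0711, adjusted p = 0.027) and 1.57-fold higher in HFD than in ND (0.65 ± 0.0711, adjusted p = 1.5e-05). The LU call was lost without any 1 of the 3 LU replicates or without HFD replicate 1 or 2 (-0.26 to -0.20, adjusted p = 0.054 to 0.11). In LU against ND, Fzd5 was 1.34-fold higher on this probe (0.42, adjusted p = 0.0010), while its dimmer probe, detected on no LU or ND array, gave -0.05 (adjusted p = 0.58).

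Fzd7 read 9.91, 9.76 and 9.89 in LU, 10.07, 10.12 and 10.04 in HFD, and 9.75, 9.83 and 9.59 in ND. HFD was again above both other groups, which overlapped. It was 1.16-fold lower in LU than in HFD (-0.22 ± 0.0686, adjusted p = 0.032) and 1.27-fold higher in HFD than in ND (0.35 ± 0.0686, adjusted p = 0.0015), and the LU call was lost without any 1 of the 3 LU replicates or without HFD replicate 1 or 2 (-0.25 to -0.17, adjusted p = 0.052 to 0.14). Fzd6 moved the other way, with 9.46, 9.50 and 9.37 in LU against 9.28, 9.14 and 9.15 in HFD. Its LU and HFD values did not overlap, and it was 1.19-fold higher in LU (0.25 ± 0.0702, adjusted p = 0.018). This call was lost without LU replicate 1 or 2 or HFD replicate 2 or 3 (0.22 to 0.24, adjusted p = 0.056 to 0.076), and a second probe with a log2 fold change of 0.21 did not pass the threshold (adjusted p = 0.085). Fzd4 passed only in LU against ND, where it was 1.19-fold lower (-0.26, adjusted p = 0.014), a call lost without LU replicate 2 (-0.21, adjusted p = 0.070), and Fzd1 passed in no comparison.

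Among the Wnt members, the largest single change in LU against HFD was that of Sfrp1 and the largest in HFD against ND that of Dkk3. Both belong to the secreted Sfrp and Dkk families, whose other members did not all change more than the remaining Wnt members. Of 5 measured, 0 were higher and 3 were lower in LU against HFD (Dkk3, Sfrp1 and Sfrp2), and 3 were higher and 0 lower in HFD against ND (Dkk3, Sfrp1 and Sfrp5). The 60.0% lower in LU against HFD stands beside 18.2% of all genes, and the 60.0% higher in HFD against ND beside 25.2%. Sfrp1, which binds Wnt proteins outside the cell, read 10.06, 10.03 and 9.95 in LU, 10.78, 10.58 and 10.72 in HFD, and 10.46, 10.44 and 9.86 in ND. All HFD values lay above all others, and ND replicate 3 stood well below the other ND arrays, below every LU array. Sfrp1 was 1.60-fold lower in LU than in HFD (log2 fold change -0.68 ± 0.127, adjusted p = 0.0020) and 1.36-fold higher in HFD than in ND (0.44 ± 0.127, adjusted p = 0.015). The call in HFD against ND was lost without HFD replicate 1 (0.40, adjusted p = 0.056). A second, dimmer Sfrp1 probe gave -0.52 and 0.33 and passed in both (adjusted p = 0.00041 and 0.0042).

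Dkk3, which belongs to the Dickkopf family by sequence although its effect on Wnt signaling is disputed, read 9.87, 9.91 and 9.72 in LU, 10.23, 10.07 and 10.04 in HFD, and 9.21, 9.06 and 9.08 in ND. The 3 groups did not overlap, with HFD highest and ND lowest. Dkk3 was 1.22-fold lower in LU than in HFD (-0.28 ± 0.0713, adjusted p = 0.011), 2.00-fold higher in HFD than in ND (1.00 ± 0.0713, adjusted p = 4.4e-07) and 1.64-fold higher in LU than in ND (0.71, adjusted p = 2.3e-05). Its second probe passed in the same 3 comparisons with -0.24, 0.93 and 0.69. The LU call against HFD was lost without LU replicate 3 (-0.23, adjusted p = 0.057).

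Sfrp5, known in mice as an inhibitor secreted by adipocytes, did not follow this pattern. It read 10.95, 10.77 and 10.71 in LU, 10.85, 10.66 and 10.94 in HFD, and 10.01, 10.06 and 9.76 in ND. The LU and HFD values overlapped, and both lay clear of ND. It was 1.83-fold higher in HFD than in ND (0.88 ± 0.0940, adjusted p = 1.3e-05) and 1.83-fold higher in LU than in ND (0.87, adjusted p = 4.2e-05), with a log2 fold change of 0.00 ± 0.0940 in LU against HFD (adjusted p = 0.98). Sfrp2, another Wnt-binding inhibitor, read 8.72, 8.68 and 8.66 in LU, 8.86, 9.13 and 9.01 in HFD, and 9.03, 9.29 and 9.10 in ND. LU lay below both other groups, and HFD and ND overlapped. Sfrp2 was 1.24-fold lower in LU than in HFD (-0.31 ± 0.0781, adjusted p = 0.010), a call lost without HFD replicate 2 (-0.25, adjusted p = 0.051), and 1.37-fold lower in LU than in ND (-0.45, adjusted p = 0.0011). Sfrp4 lay near background and passed in no comparison.

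**Figure D2:**
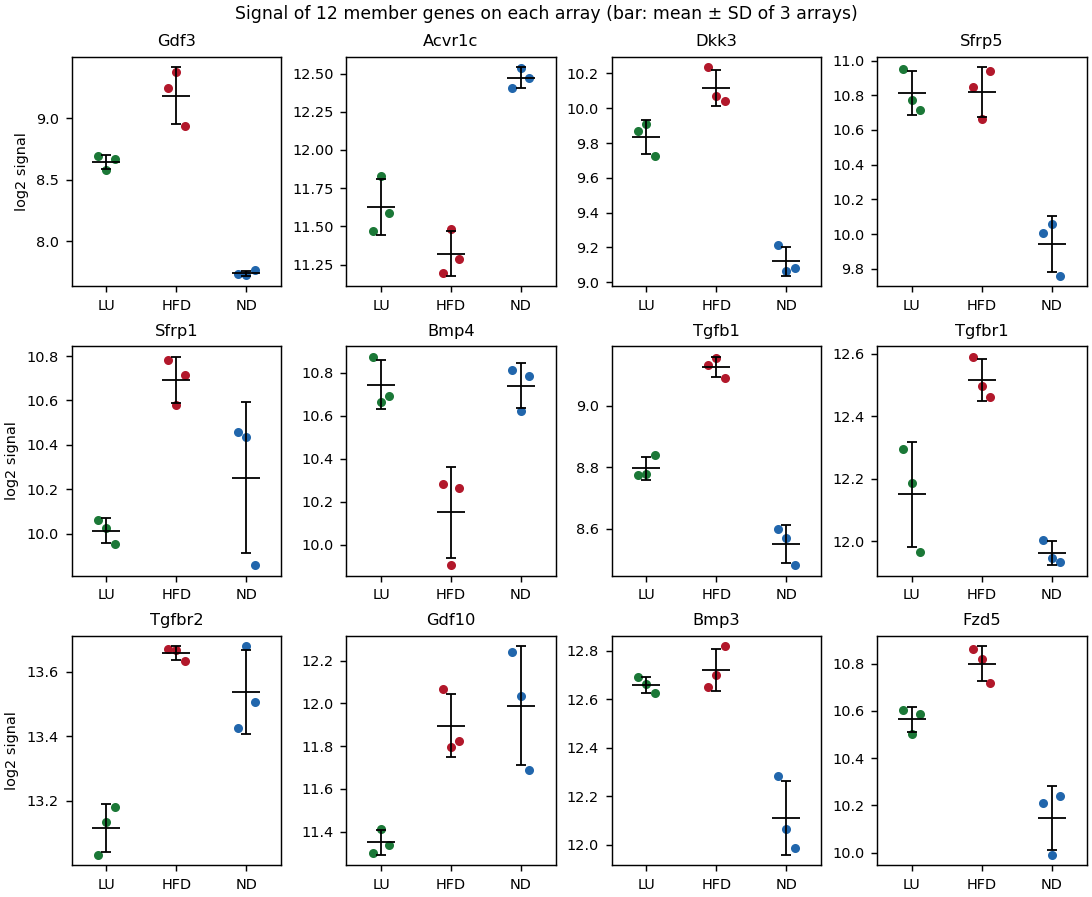
Log2 signal (vertical axis, a separate scale in each panel) of 12 members on each of the 9 arrays, with LU at the left, HFD in the middle and ND at the right of each panel; points are arrays and black bars give the mean and SD of 3 arrays. Gdf3, Dkk3, Tgfb1 and Fzd5 show LU between HFD and ND with no overlap, Bmp4 shows LU beside ND, Sfrp5 and Bmp3 show LU beside HFD, and Tgfbr2 and Gdf10 show LU below both.

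In the TGF-beta branch proper, 1 of 9 genes was higher and 3 were lower in LU against HFD, and 3 were higher and 2 lower in HFD against ND. These are 11.1% and 33.3% in LU against HFD, beside 19.7% and 18.2% of all genes. In HFD against ND they are 33.3% and 22.2%, beside 25.2% and 27.7%. Tgfb1, the best known TGF-beta ligand, read 8.77, 8.78 and 8.84 in LU, 9.13, 9.16 and 9.09 in HFD, and 8.60, 8.57 and 8.48 in ND. The groups did not overlap. Tgfb1 was 1.26-fold lower in LU than in HFD (log2 fold change -0.33 ± 0.0536, adjusted p = 0.00085), 1.49-fold higher in HFD than in ND (0.58 ± 0.0536, adjusted p = 3.9e-06) and 1.19-fold higher in LU than in ND (0.25, adjusted p = 0.0045). Tgfb2 passed in no comparison and had a log2 fold change of -0.14 in LU against HFD (adjusted p = 0.13).

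Tgfbr1, the type I receptor of TGF-beta, read 12.30, 12.19 and 11.96 in LU, 12.59, 12.50 and 12.46 in HFD, and 12.01, 11.95 and 11.93 in ND. HFD stood above both other groups, and LU replicate 3 reached into the ND range. Tgfbr1 was 1.29-fold lower in LU than in HFD (-0.37 ± 0.0767, adjusted p = 0.0039) and 1.47-fold higher in HFD than in ND (0.55 ± 0.0767, adjusted p = 0.00011). Its other probes gave -0.15 and -0.25 for LU against HFD, of which the second passed (adjusted p = 0.11 and 0.032), and 0.30 and 0.22 for HFD against ND, which both passed (adjusted p = 0.0038 and 0.046). The probe with -0.25 and 0.22 lay near background, with means of 7.74 in LU, 7.99 in HFD and 7.77 in ND. It was detected on every HFD array but on only 1 LU and 1 ND array, so its values add little. Tgfbr2, the type II receptor that binds the ligand first, read 13.03, 13.13 and 13.18 in LU, 13.67, 13.67 and 13.63 in HFD, and 13.43, 13.68 and 13.51 in ND. All LU values lay below all HFD and ND values, while HFD and ND overlapped. It was 1.46-fold lower in LU than in HFD (-0.54 ± 0.0682, adjusted p = 0.00018) and 1.34-fold lower in LU than in ND (-0.42, adjusted p = 0.00075), with 0.12 in HFD against ND (adjusted p = 0.19).

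Tgfbr3, a co-receptor also called betaglycan, read 11.73, 11.85 and 11.85 in LU, 11.71, 11.83 and 11.83 in HFD, and 12.13, 12.04 and 12.17 in ND. Both high-fat groups lay below ND and overlapped each other. Tgfbr3 was 1.25-fold lower in HFD than in ND (-0.32 ± 0.0606, adjusted p = 0.0011) and 1.23-fold lower in LU than in ND (-0.30, adjusted p = 0.0028), and its second probe gave -0.26 and -0.34 (adjusted p = 0.0088 and 0.0025). Tgfbr3l, named for its likeness to Tgfbr3, was 1.23-fold higher in LU than in HFD (0.30 ± 0.0655, adjusted p = 0.0054) and 1.15-fold lower in HFD than in ND (-0.20, adjusted p = 0.030), the second of these calls being lost without HFD replicate 1 or 2 or ND replicate 1 or 2 (-0.21 to -0.16, adjusted p = 0.056 to 0.10).

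The latent TGF-beta binding proteins gave smaller changes, and the probes of Ltbp3 did not give the same result. On the brightest probe Ltbp3 read 13.15, 13.13 and 13.22 in LU, 13.12, 13.17 and 13.05 in HFD, and 12.96, 12.83 and 13 in ND. LU and HFD overlapped above ND. This probe was 1.14-fold higher in HFD than in ND (0.18 ± 0.0607, adjusted p = 0.030) and 1.18-fold higher in LU than in ND (0.24, adjusted p = 0.011), with 0.05 in LU against HFD (adjusted p = 0.55). The HFD call was lost without HFD replicate 1 or 2 or ND replicate 2 (0.13 to 0.18, adjusted p = 0.075 to 0.11), and the LU call without LU replicate 3 (0.21, adjusted p = 0.053). A second probe read 9.23, 9.01 and 9.11 in LU, 8.57, 8.47 and 8.33 in HFD, and 8.85, 8.54 and 8.54 in ND. On this probe LU stood above both other groups, at 1.58 times HFD (0.66 ± 0.0916, adjusted p = 0.00030), and HFD against ND had the opposite sign (-0.19 ± 0.0916, adjusted p = 0.13). The third Ltbp3 probe passed in no comparison. Ltbp4 was 1.27-fold lower in LU than in ND (-0.34, adjusted p = 0.0061), and Ltbp1 was 1.18-fold lower (-0.24, adjusted p = 0.024), a call lost without LU replicate 1 or 3 or ND replicate 1 or 2 (-0.23 to -0.20, adjusted p = 0.051 to 0.099).

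**Figure D3:**
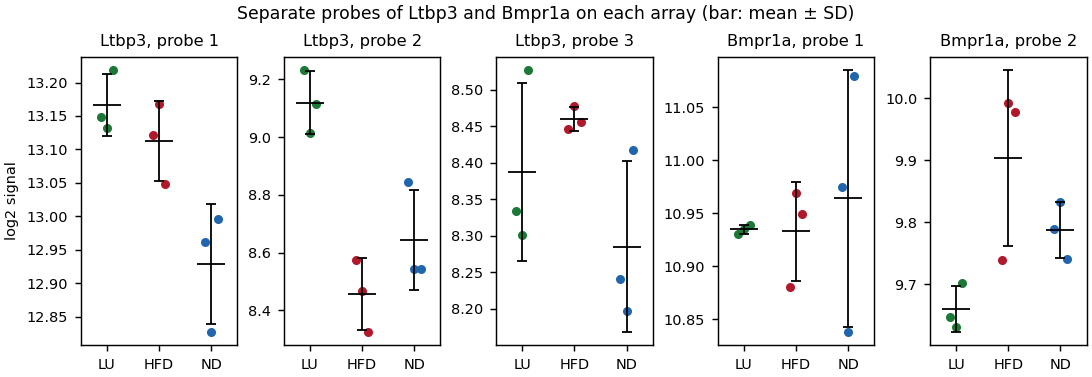
Log2 signal (vertical axis, a separate scale in each panel) of the 3 Ltbp3 probes and the 2 Bmpr1a probes above background on each array, with LU at the left, HFD in the middle and ND at the right; points are arrays and bars give the mean and SD of 3 arrays, and probe 1 is the one each gene was read from. Ltbp3 probe 2 has LU above HFD by 0.66, where probe 1 gives 0.05, and Bmpr1a probe 2 has LU below HFD by 0.24, where probe 1 gives 0.00.

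Activin receptors held the lowest fold change of all members in HFD against ND, where 0 of 4 were higher and 3 (75.0%) were lower. Over all genes, 25.2% were higher and 27.7% lower there. Acvr1c, also called ALK7, is a type I receptor known from mouse adipocytes that restrains lipolysis. It read 11.47, 11.83 and 11.59 in LU, 11.20, 11.48 and 11.29 in HFD, and 12.41, 12.54 and 12.47 in ND. Every array of the 2 high-fat groups lay far below every ND array, and LU and HFD overlapped. Acvr1c was 2.22-fold lower in HFD than in ND (log2 fold change -1.15 ± 0.0923, adjusted p = 1.1e-06) and 1.80-fold lower in LU than in ND (-0.84, adjusted p = 4.5e-05). It was 1.24-fold higher in LU than in HFD (0.31 ± 0.0923, adjusted p = 0.026), a call lost without LU replicate 2 or 3 or HFD replicate 1 or 3 (0.21 to 0.33, adjusted p = 0.055 to 0.12).

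Acvr1, a type I receptor that BMPs also use, read 10.65, 10.58 and 10.55 in LU, 10.45, 10.46 and 10.48 in HFD, and 10.86, 10.98 and 11.07 in ND. The 3 groups did not overlap, with HFD lowest. Acvr1 was 1.42-fold lower in HFD than in ND (-0.50 ± 0.0609, adjusted p = 3.7e-05) and 1.30-fold lower in LU than in ND (-0.37, adjusted p = 0.00079), with 0.13 in LU against HFD (adjusted p = 0.13). Acvr2b, a type II receptor of activins and myostatin, read 10.14, 10.05 and 10.02 in LU, 9.73, 9.81 and 9.85 in HFD, and 10.13, 10.00 and 9.94 in ND. HFD lay below both other groups, which overlapped. It was 1.21-fold higher in LU than in HFD (0.27 ± 0.0632, adjusted p = 0.0069) and 1.17-fold lower in HFD than in ND (-0.23 ± 0.0632, adjusted p = 0.012), the second call being lost without HFD replicate 1 (-0.20, adjusted p = 0.053). Acvr1b, the main type I receptor of activin, read 8.36, 8.29 and 8.28 in LU, 8.50, 8.4 and 8.60 in HFD, and 8.60, 8.63 and 8.68 in ND. LU was lowest, and neither HFD nor ND overlapped with it. It was 1.14-fold lower in LU than in HFD (-0.19 ± 0.0607, adjusted p = 0.034), a call lost without any 1 of the 3 LU replicates or without HFD replicate 1 or 3 (-0.22 to -0.14, adjusted p = 0.051 to 0.13), and 1.25-fold lower in LU than in ND (-0.33, adjusted p = 0.0018).

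Of the 8 BMP and GDF ligands, 2 were higher and 2 lower in LU against HFD, and 2 were higher and 1 lower in HFD against ND. These are 25.0% each in LU against HFD, near the 19.7% and 18.2% of all genes. In HFD against ND they are 25.0% and 12.5%, beside 25.2% and 27.7%. Gdf3, a ligand that signals through Acvr1c and is known from adipose tissue macrophages in mice, read 8.69, 8.58 and 8.67 in LU, 9.24, 9.38 and 8.93 in HFD, and 7.73, 7.72 and 7.76 in ND. It was detected on every LU and HFD array and on no ND array, and no groups overlapped. Gdf3 was at least 2.60-fold higher in HFD than in ND (measured log2 fold change 1.45 ± 0.0905, adjusted p = 1.5e-07) and at least 1.79-fold higher in LU than in ND (0.91, adjusted p = 2.3e-05), with bounds set by the background of the ND arrays. It was 1.45-fold lower in LU than in HFD (-0.54 ± 0.0905, adjusted p = 0.0010).

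Bmp4, a ligand that commits precursor cells to the adipocyte lineage, moved opposite to Gdf3. It read 10.87, 10.66 and 10.69 in LU, 10.28, 9.91 and 10.27 in HFD, and 10.81, 10.62 and 10.79 in ND. HFD lay below both other groups, which overlapped. Bmp4 was 1.51-fold higher in LU than in HFD (0.59 ± 0.0978, adjusted p = 0.00091) and 1.51-fold lower in HFD than in ND (-0.59 ± 0.0978, adjusted p = 0.00044), and LU against ND gave 0.00 ± 0.0978 (adjusted p = 0.98).

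Bmp3, an antagonist among the BMPs of bone, read 12.69, 12.66 and 12.63 in LU, 12.65, 12.70 and 12.82 in HFD, and 12.28, 12.06 and 11.99 in ND. LU and HFD overlapped and both lay above ND. Bmp3 was 1.53-fold higher in HFD than in ND (0.61 ± 0.0750, adjusted p = 4.1e-05) and 1.46-fold higher in LU than in ND (0.55, adjusted p = 0.00024), with -0.06 in LU against HFD (adjusted p = 0.57). Gdf10, a BMP3-related ligand, read 11.30, 11.41 and 11.34 in LU, 12.07, 11.80 and 11.82 in HFD, and 12.24, 12.03 and 11.69 in ND. LU lay below every HFD and ND array, and HFD and ND overlapped. It was 1.46-fold lower in LU than in HFD (-0.55 ± 0.115, adjusted p = 0.0040) and 1.56-fold lower in LU than in ND (-0.64, adjusted p = 0.0015). Gdf5, a ligand known from joint formation, was 1.19-fold higher in LU than in HFD (0.25 ± 0.0590, adjusted p = 0.0076) and 1.16-fold higher in LU than in ND (0.21, adjusted p = 0.017), the second call being lost without LU replicate 1 or 3 (0.20 to 0.22, adjusted p = 0.050 to 0.063). Bmp6, Bmp7 and Gdf9 passed in no comparison.

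None of the 3 Bmpr receptors passed in any of the 3 comparisons on its brightest probe. Acvr1, which BMPs also use, was lower in HFD and LU than in ND and is given above with the activin receptors. Bmpr1a, a type I receptor through which BMP4 acts, read 10.93, 10.94 and 10.94 in LU, 10.88, 10.97 and 10.95 in HFD, and 10.97, 10.84 and 11.08 in ND, and all groups overlapped. A dimmer Bmpr1a probe read 9.65, 9.63 and 9.70 in LU against 9.74, 9.99 and 9.98 in HFD, with no overlap (log2 fold change -0.24 ± 0.0688, adjusted p = 0.020). Bmpr2, the type II receptor, read 12.67, 12.74 and 12.66 in LU, 12.71, 12.62 and 12.66 in HFD, and 12.80, 12.72 and 12.77 in ND. LU overlapped with both other groups, and HFD lay slightly below ND (-0.10 ± 0.0530, adjusted p = 0.16).

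Smads, which carry the signal to the nucleus, changed little. Smad2, a carrier of TGF-beta and activin signals, read 9.70, 9.72 and 9.65 in LU, 9.92, 9.95 and 9.95 in HFD, and 9.82, 9.92 and 10.01 in ND. LU lay below both other groups, which overlapped. Smad2 was 1.19-fold lower in LU than in HFD (-0.25 ± 0.0580, adjusted p = 0.0069) and 1.17-fold lower in LU than in ND (-0.22, adjusted p = 0.012), the second call being lost without LU replicate 3 (-0.21, adjusted p = 0.053). Both Smad2 calls were lost under median scaling (-0.19, adjusted p = 0.067, against HFD and -0.20, adjusted p = 0.059, against ND). Smad3, its partner, read 12.10, 12.09 and 12.12 in LU, 12.08, 11.96 and 12.03 in HFD, and 11.90, 11.87 and 11.81 in ND. The groups did not overlap and ND was lowest. Smad3 was 1.12-fold higher in HFD than in ND (0.16 ± 0.0530, adjusted p = 0.029), a call lost without HFD replicate 1 or 3 or ND replicate 3 (0.14 to 0.16, adjusted p = 0.068 to 0.11), and 1.18-fold higher in LU than in ND (0.24, adjusted p = 0.0046), while its dimmer probe passed in no comparison. Smad5, a carrier of BMP signals, read 10.31, 10.35 and 10.43 in LU, 10.19, 10.22 and 10.31 in HFD, and 10.46, 10.64 and 10.49 in ND. It was lowest in HFD and did not overlap with ND there, at 1.22-fold below ND (-0.29 ± 0.0632, adjusted p = 0.0029), with 0.12 in LU against HFD (adjusted p = 0.17), and its dimmer probe gave -0.02 in HFD against ND (adjusted p = 0.76). Smad1 passed in no comparison.

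The 3 remaining symbols do not encode pathway ligands or receptors. Bmp1, a metalloproteinase that processes procollagen, read 11.83, 11.78 and 11.85 in LU, 12.08, 11.98 and 11.98 in HFD, and 11.49, 11.34 and 11.36 in ND, with no overlap between groups. It was 1.14-fold lower in LU than in HFD (-0.19 ± 0.0582, adjusted p = 0.027), 1.53-fold higher in HFD than in ND (0.61 ± 0.0582, adjusted p = 4.7e-06) and 1.34-fold higher in LU than in ND (0.42, adjusted p = 0.00026). The call in LU against HFD was lost without any 1 of the 3 LU replicates or without HFD replicate 1 or 2 (-0.21 to -0.16, adjusted p = 0.052 to 0.10), and its other probes gave -0.28 and -0.17 (adjusted p = 0.0056 and 0.053). Bmp2k and Tgfbrap1 passed in no comparison. Over all roles, 17 members had several probes above background, and these gave 1 sign in 10 genes for LU against HFD and in 13 genes for HFD against ND. In no gene were probes called in opposite directions.

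The genes that respond to these pathways were read from lists of their own. Of all 8699 genes, 19.7% were called higher and 18.2% lower in LU against HFD (median log2 fold change 0.02). In HFD against ND these shares were 25.2% and 27.7% (median -0.03). The counts of these short lists stand beside such shares and were not tested as sets. Of 7 measured TGF-beta response genes (10 listed), 0 were higher and 5 lower in LU against HFD (median log2 fold change -0.56), and 4 were higher and 0 lower in HFD against ND (median 0.27). Col3a1, a fibrillar collagen, had -0.78 ± 0.0927 in LU against HFD and 1.40 ± 0.0927 in HFD against ND (adjusted p = 0.00013 and 2.3e-07). Col1a1, the main chain of type I collagen, had -0.69 and 1.02 (adjusted p = 0.00033 and 4.6e-06). Tgfbi, a matrix protein named for its induction by TGF-beta, had -0.65 and 0.27 (adjusted p = 3.2e-05 and 0.0027). Ccn2, a matrix-associated growth factor, was lower in LU than in HFD (-0.56, adjusted p = 0.0039) and had -0.25 in HFD against ND (adjusted p = 0.12), and Acta2, the smooth muscle actin, passed in neither.

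Of 5 measured BMP response genes (6 listed), 3 were higher and 1 lower in LU against HFD (median 0.20), and 1 was higher and 2 lower in HFD against ND (median -0.19). Id1, an inhibitor of basic helix-loop-helix factors and a direct BMP target, had 0.36 ± 0.110 in LU against HFD and -0.80 ± 0.110 in HFD against ND (adjusted p = 0.026 and 0.00010). The first of these calls was lost without any 1 of the 3 LU replicates or without HFD replicate 1 (0.26 to 0.40, adjusted p = 0.050 to 0.11). Id4 had 0.20 and -0.29 (adjusted p = 0.024 and 0.0020), with the call in LU lost without LU replicate 1 or 2 or HFD replicate 2 or 3 (0.16 to 0.20, adjusted p = 0.075 to 0.10). Id2 went the other way, with -0.26 and 0.27 (adjusted p = 0.018 and 0.012). The call in LU was lost without LU replicate 1 or 2 or HFD replicate 1 (-0.26 to -0.19, adjusted p = 0.061 to 0.078), and that in HFD against ND without HFD replicate 1 (0.20, adjusted p = 0.058).

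Of 6 measured Wnt response genes (12 listed), 2 were higher and 1 lower in LU against HFD (median 0.02), and 4 were higher and 1 lower in HFD against ND (median 0.35). Axin2, the classic feedback target of beta-catenin, had 0.47 ± 0.0880 in LU against HFD and -0.44 ± 0.0880 in HFD against ND (adjusted p = 0.0021 and 0.0018). Ccn5, a secreted protein of adipose precursor cells, had 2.16 for HFD against ND, with an adjusted p of 2.1e-06, and -0.38 for LU against HFD, with one of 0.15. Ccnd1, the cell cycle protein cyclin D1, and Nkd1, a feedback inhibitor of Wnt signaling, were higher in HFD than in ND by 0.67 and 0.51 (adjusted p = 1.3e-05 and 0.0024) and had values of -0.15 and 0.19 between LU and HFD that did not pass (adjusted p = 0.13 and 0.21). The list therefore did not move as one.

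**Figure D4:**
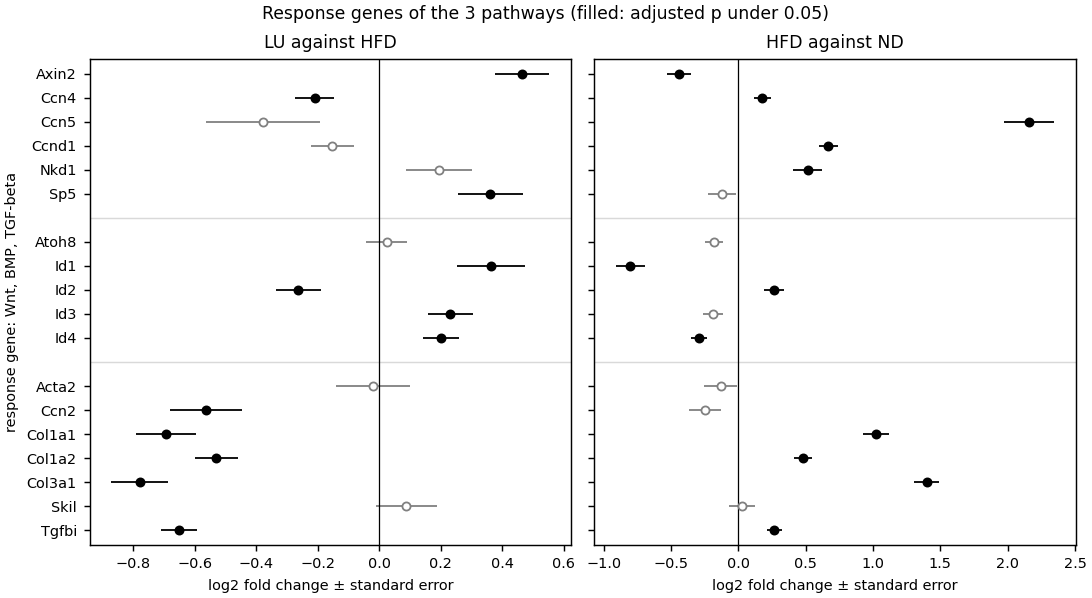
Log2 fold change (horizontal axis, with its standard error) of the measured response genes of the Wnt (top), BMP (middle) and TGF-beta (bottom) lists in LU against HFD (left panel) and HFD against ND (right panel); filled points have an adjusted p under 0.05. Col3a1, Col1a1, Col1a2 and Tgfbi are lower in LU than in HFD and higher in HFD than in ND, Axin2 and Id1 have the opposite signs, and Ccn5 has the highest value in HFD against ND at 2.16.

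Other genes of the pathways were counted from lists as well. Their counts also stand beside 19.7% of all genes called higher and 18.2% called lower in LU against HFD. In HFD against ND the shares over all genes were 25.2% and 27.7%. Among 20 measured further Wnt genes (46 listed), 5 were higher and 1 lower in LU against HFD, and 2 were higher and 9 lower in HFD against ND. Tcf7l2, a transcription factor partner of beta-catenin, and Ryk, a Wnt co-receptor, had -0.42 and -0.39 in HFD against ND (adjusted p = 0.00013 and 0.00027), while their changes of 0.11 and 0.13 between LU and HFD did not pass (adjusted p = 0.20 and 0.14), and Lrp6, a Wnt co-receptor, was lower in LU than in HFD (-0.36, adjusted p = 0.0018). Among 11 measured antagonists and co-receptors of BMPs and activins (26 listed), 3 were higher and 5 lower in LU against HFD, and 1 was higher and 3 lower in HFD against ND. Bmper and Nbl1, secreted proteins that bind BMPs, were lower in LU than in HFD, with log2 fold changes of -0.62 and -0.43 (adjusted p = 0.00063 and 0.00092), and Fstl1, a follistatin-like glycoprotein, had -0.54 in LU against HFD and 0.57 in HFD against ND (adjusted p = 0.00021 and 4.7e-05). Among 13 measured activators and regulators of TGF-beta (19 listed), 1 was higher and 5 were lower in LU against HFD, and 4 were higher and 5 lower in HFD against ND. Nrros, which anchors latent TGF-beta on myeloid cells, had -0.56 and 0.76 in these comparisons (adjusted p = 0.00050 and 1.8e-05).

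Markers of several cell types in the pad differed between the groups, and not all in the same way. Over all genes, 19.7% were called higher and 18.2% lower in LU against HFD, and 25.2% and 27.7% in HFD against ND. Of 13 measured adipocyte markers (Acvr1c is 1 of them), 8 were higher and 0 lower in LU against HFD, and 1 was higher and 10 lower in HFD against ND, with summed linear signals of 296672 to 301764 in LU, 267478 to 283267 in HFD and 289352 to 302895 in ND. Of 15 measured macrophage markers, 0 were higher and 15 lower in LU against HFD, and 13 were higher and 1 lower in HFD against ND, with sums of 95278 to 100028 in LU, 124265 to 132683 in HFD and 75526 to 85471 in ND. Of 12 measured fibroblast and progenitor markers (Col1a1, Col1a2 and Col3a1 among them), 0 were higher and 10 lower in LU against HFD, and 6 were higher and 1 lower in HFD against ND, with sums of 66631 to 69865 in LU, 79835 to 83139 in HFD and 66503 to 75218 in ND. The 6 mast cell markers were all lower in LU than in HFD, and of 9 mesothelium markers 2 were higher and 5 lower, as were 0 and 2 of 3 T cell markers. Of 8 blood endothelium markers none passed in LU against HFD, 2 of 10 epididymis markers were measured and passed in no comparison, and no B cell marker was measured. Epididymis sums were 379 to 436 in LU, 392 to 854 in HFD and 445 to 512 in ND, so the HFD arrays differed most among themselves. In HFD against ND, 0 mesothelium markers were higher and 6 lower, 1 mast cell marker was higher and 0 lower, and no T cell marker passed. Blood endothelium had 0 higher and 2 lower there, and smooth muscle and pericytes 0 higher and 1 lower. Mast cell sums were 2166.3 to 2299.1 in LU, 4231 to 5375 in HFD and 3926 to 4592 in ND, and T cell sums 817 to 878 in LU, 920 to 1188 in HFD and 972 to 1100 in ND. Of 3 smooth muscle and pericyte markers 1 was higher and 0 lower in LU against HFD, with sums of 11923 to 12289 in LU, 10122 to 10839 in HFD and 11754 to 12833 in ND. Their median log2 fold change in LU against HFD was -0.02, so the higher sum does not hold for these markers as a set. Linear sums weigh the brightest markers most. The sums of LU and HFD did not overlap for adipocytes, macrophages, fibroblasts, mast cells, T cells, and smooth muscle and pericytes, and their part in the values of Acvr1c, Gdf3, Tgfb1, Sfrp1, Bmp4 and the collagens was not tested.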

How the data were processed

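The authors summarised the arrays in BeadStudio and deposited, for 9 arrays, the intensity of 45281 probes as yet unnormalized, each with its detection p-value, and a quantile-normalized log2 table of 17128 probes. Gene names were held only for probes of that log2 table, and how the authors chose these probes is not stated, so named genes are a selected set. Starting from the intensities, no background was subtracted, arrays were quantile-normalized and log2 was taken. Tests ran on the 20558 probes whose detection p lay under 0.05 on 3 or more arrays. On each array 42.2% to 43.8% of probes were detected, and the median raw signal was 193 to 197 in LU, 209 to 216 in HFD and 194 to 207 in ND. Groups were compared in 1 fit with limma 3.58.1 in R 4.3.3, two-sided, with Benjamini-Hochberg adjustment within each comparison, after the code was tested on simulated data. With 3 arrays against 3, an exact permutation test cannot go below p = 0.1. A probe below background on every array of a group gives a lower bound, the brighter group's mean against the higher of each array's background level and the probe's own signal. Members and lists were chosen with earlier results of these data known. Values per array follow a rule by role (the largest called changes, Tgfb1, Sfrp5 and members with discordant probes). Promoters are RefSeq's, GRCm38.p6. Arrays were few, which limits precision.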

Additional observations from a re-analysis of the deposited data

How the results depend on the processing

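The counts of members called depended on the test and on a fold limit. With the rank product, which the methods name for the arrays, 1 member was higher and 4 lower in LU against HFD, 3 and 1 in HFD against ND, and 3 and 2 in LU against ND. All genes gave 222 and 315, 377 and 254, and 323 and 217 in the same order. With the methods' t-test, their general test and not the one for the arrays, the counts after Benjamini-Hochberg were 2 higher and 7 lower in LU against HFD, 8 and 4 in HFD against ND, and 8 and 3 in LU against ND, and at the methods' unadjusted threshold 7 and 16, 11 and 9, and 10 and 12. In that order of comparisons, all genes gave 1315 and 1192, 1228 and 1148, and 717 and 530 after adjustment. Unadjusted, all genes gave 2317 and 2014, 2059 and 2320, and 1949 and 1753. With a fold change of at least 1.5 the member counts were 1 and 1, 6 and 2, and 3 and 2 in the same order. All genes gave 79 and 214, 592 and 268, and 303 and 165. Median scaling gave 8 lower members in LU against HFD, beside 1108 lower over all genes. Of the 55 called values of the members given by array, 41 were lost with the rank product, 25 with the adjusted t-test and 10 with median scaling.

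Leaving out each array in turn gave 4 to 7 higher and 9 to 16 lower members in LU against HFD, 9 to 14 and 5 to 10 in HFD against ND, and 9 to 11 and 9 to 12 in LU against ND. All genes gave 1117 to 2017 and 1167 to 1787, 1824 to 2176 and 1903 to 2309, and 1350 to 1954 and 1112 to 1641. Without 1 array, 8 of 18 calls of the members given by array were lost in LU against HFD, 6 of 20 in HFD against ND and 2 of 17 in LU against ND. With the replicate number as a replicate block, 6 members were higher and 14 lower in LU against HFD, 13 and 7 in HFD against ND, and 12 and 11 in LU against ND. All genes gave 1624 and 1528, 2110 and 2313, and 1767 and 1541 with the block. Between same-numbered arrays of different groups, deviations from the group means correlated at -0.0992 to 0.0872. Such deviations cannot show a batch that follows the groups, since each group's mean was taken out.

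Among those 55 called values, 2 had the other sign with another probe of the gene. Fzd5 in LU against ND gave -0.047 with its dimmest probe (adjusted p = 0.60, or 0.58 when that probe was tested among all probes), which was detected on 0 LU and 0 ND arrays and so carries no direction. Ltbp3 in HFD against ND gave -0.19 with its second probe (adjusted p = 0.13), a choice made after seeing the data, and the cause was not tested.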
